A study of Mus musculus with 96 samples.

Results

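The genes described here encode pore-forming alpha1 subunits of voltage-gated calcium channels, and their transcripts were followed in single neurons of the mouse lateral superior olive (LSO), an auditory brainstem nucleus. The members are Cacna1a, Cacna1b, Cacna1c, Cacna1d, Cacna1e, Cacna1g, Cacna1h and Cacna1i, chosen by name as the rows of the deposited table whose Ensembl identifier carries that symbol in Gencode vM21. All 8 were found among the 38887 genes of the table. Of these 8 genes, 6 were detected in at least 5% of the neurons, as were 10319 genes in all. Cacna1h and Cacna1i were below that mark and are described by their single detections.

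The alpha1 subunit forms the calcium pore and its voltage sensor. It decides to which family the channel belongs. Cav2 channels (Cacna1a, Cacna1b and Cacna1e) carry P/Q-, N- and R-type currents and couple presynaptic action potentials to transmitter release. Cav1 channels (Cacna1c and Cacna1d) carry L-type currents that feed calcium signals to the soma and nucleus, and Cav3 channels (Cacna1g, Cacna1h and Cacna1i) carry T-type currents that open near the resting potential. In the auditory brainstem, P/Q-type channels are known as the main trigger of fast release at mature synapses.

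The study combined whole-cell recording with single-cell RNA sequencing (Patch-seq). Coronal brainstem slices came from C57BL/6J mice of both sexes at postnatal day 11 ± 1, and the cytoplasm of each recorded neuron was aspirated into the pipette, so each library is 1 neuron. Principal neurons (pLSOs), which project upwards and encode interaural level differences, were labelled by firing pattern as Onset (n = 41) or Sustained (n = 11). Lateral olivocochlear neurons (LOCs, n = 28), which project to the cochlea, were labelled by delayed firing, and 8 negative controls came from pipettes whose tip met the slice without a neuron being harvested. No agent, transgene or genotype separates these groups. The labels name no animals, so each class counts as 1 sample. No test was made from cells, and shares are given with exact Clopper-Pearson 95% intervals that cover counting error only.

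The values are TPM, transcript abundances normalised for length and depth, rounded to whole numbers, and a gene counts as detected at 1 TPM or more. Of 86 neurons and 10 negative controls, 6 neurons and 2 controls were left out, because in earlier processing of the same files their labels and their place in the authors' cluster means differed, or the values of 1 neuron were printed differently elsewhere. The choice of libraries therefore rests in part on transcriptome clusters, and the share differences with all libraries as labelled are given where a result turns on them. The pLSO markers Spp1, Kcnh7 and Maf were detected in 76.9% to 96.2% of pLSOs and in 3.57% to 28.6% of LOCs. The LOC markers Calca, Ucn and Chat were detected in 17.9% to 92.9% of LOCs and in 0% to 28.8% of pLSOs. All of these but Chat are among the top class genes that the study took from these same neurons. Their split by class is therefore no independent support for the labels. Neuronal markers (Snap25, Syt1, Tubb3, Stmn2 and Rbfox3) were detected in 30.8% to 100% of pLSOs and 42.9% to 96.4% of LOCs. The summed astrocyte, microglia and endothelial markers had medians between 0 and 8.5 TPM in both classes. Single neurons reached 2456 TPM for astrocyte markers (a LOC), 1805 TPM for microglia markers (a pLSO) and 533 TPM for endothelial markers (a LOC). Negative controls held neuronal markers in 0% to 87.5%, LOC markers in 0% to 62.5% and pLSO markers in 0% to 50% of libraries. Chat, which makes acetylcholine, was the marker at 17.9% of LOCs. The median number of detected genes was 2560.5 in pLSOs (1333 to 6276), 2394 in LOCs (1175 to 4408) and 821 in negative controls (285 to 1271). Mapped reads per library were not used here, and every library summed to between 999773 and 1000026 TPM.

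The size of 1 TPM was not the same for every member. Across the neurons, the lowest positive value was 5 TPM for Cacna1e and 8 TPM for Cacna1b, 2 TPM for Cacna1d, and 1 TPM for the remaining members. Among the genes standing nearest to Cacna1e and Cacna1b in the table, the median of the lowest positive values was 5 TPM. Levels of different members are therefore not compared, and each gene is compared only with itself between groups.

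Cacna1e, the R-type subunit Cav2.3, was the member with the largest class difference, and its start region is shown beside that of Cacna1b, a Cav2 member whose shares in the classes lay closer together. Both sequences run from 250 bases before to 50 bases after the RefSeq start (GRCm38.p6, minus strand), in lower case with CpG dinucleotides in capitals. The Cacna1e window is chr1:154725871-154726170 and that of Cacna1b is chr2:24763103-24763402.
Cacna1e: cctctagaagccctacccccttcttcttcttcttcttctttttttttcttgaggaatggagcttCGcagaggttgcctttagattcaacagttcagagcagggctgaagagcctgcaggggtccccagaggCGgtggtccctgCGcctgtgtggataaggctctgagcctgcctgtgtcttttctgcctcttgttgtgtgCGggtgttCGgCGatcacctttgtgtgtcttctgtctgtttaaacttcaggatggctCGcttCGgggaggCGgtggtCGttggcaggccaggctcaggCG
Cacna1b: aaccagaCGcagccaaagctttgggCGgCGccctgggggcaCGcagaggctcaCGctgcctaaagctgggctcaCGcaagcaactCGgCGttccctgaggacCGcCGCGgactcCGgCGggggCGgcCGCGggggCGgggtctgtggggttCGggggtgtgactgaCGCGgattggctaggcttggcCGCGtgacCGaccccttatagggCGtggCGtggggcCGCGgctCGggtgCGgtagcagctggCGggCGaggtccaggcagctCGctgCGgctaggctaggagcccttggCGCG
The RefSeq start of Cacna1e lies inside the longer Gencode gene, which spans chromosome 1 from 154390731 to 154884501 on the minus strand. Cacna1b spans chromosome 2 from 24603887 to 24763152 on the same strand. The Cacna1e window had 11 CpG dinucleotides and a GC content of 55.3%, near the medians of 7 and 52.7% over 32851 RefSeq promoters of 300 bases. The Cacna1b window was far richer, with 35 CpG dinucleotides and a GC content of 72.3%, above 93.5% of all promoters. On either strand, GGGCGG (the GC box) matched 3 times in the Cacna1b window and did not match in the Cacna1e window, and 35.7% of all promoters hold it. TATAAA, held by 13.6% of all promoters, and CTAATG, a homeobox-type core held by 7.36%, matched in neither window. These matches describe letters only. Windows of 5 of the 8 members were at hand, and those of Cacna1a, Cacna1g and Cacna1h were not used here. Cacna1c and Cacna1d, at share differences of -1.10 and 3.57 percentage points, had several windows each. These held from 3 to 57 CpG dinucleotides for Cacna1c and from 4 to 63 for Cacna1d. The GC box was absent from the CpG-poorer windows of both genes, as in Cacna1e, and matched 4 times in the richest of each. The Cacna1i window held 23 CpG dinucleotides and no GC box. A tie of these letters to class shares was not tested.

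Among the Cav2 genes, Cacna1e (ENSMUSG00000004110) was detected in 21 of 28 LOCs (75%, 95% interval 55.1% to 89.3%) and in 13 of 52 pLSOs (25%, 14.0% to 38.9%). Its value in LOCs had a lowest of 0, a median of 520.5 and a highest of 11290 TPM. In pLSOs the lowest and the median were 0 and the highest was 6923 TPM. LOCs thus held most of the high values. The classes overlapped, since 7 LOCs lacked the transcript and 1 pLSO, at 6923 TPM, stood above all but the highest LOC, while the next pLSO stood at 1108 TPM. Among the neurons that held it, the median was 1102 TPM in LOCs and 51 TPM in pLSOs. The lowest positive value was 29 TPM in LOCs and 5 TPM in pLSOs.

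The mean of Cacna1e was 1511 TPM in LOCs and 196 TPM in pLSOs, a ratio of 7.72. That ratio rested on single neurons in part: without the highest neuron of each class, the means were 1149 and 63.9 TPM and the ratio was 18.0. On the scale of log2(TPM + 1), the mean was 7.32 ± 4.73 in LOCs and 1.55 ± 3.22 in pLSOs (SD over 28 and 52 neurons), a difference of -5.77, pLSO minus LOC. The difference of the shares was -50.0 percentage points, and it was -59.6 at a threshold of 10 TPM and -51.7 with all libraries as labelled. Of the 10319 genes detected in at least 5% of neurons, 20 leaned further towards LOCs by share.

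Cacna1e was held by 9 of 41 Onset neurons (22%, 10.6% to 37.6%) and by 4 of 11 Sustained neurons (36.4%, 10.9% to 69.2%). The 3 highest Onset values were 6923, 843 and 732 TPM, and the other 6 positive values lay between 5 and 51 TPM. The positive Sustained values were 1108, 367, 116 and 5 TPM. Most pLSOs that held Cacna1e therefore did so at values below those of most LOCs, and this held for each firing pattern with a few exceptions.

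Of the 8 negative controls, 1 held Cacna1e at 340 TPM (12.5%, 0.316% to 52.7%). Oligodendrocyte markers (Mbp, Mog, Mag and Mobp), whose genes serve myelin, summed to a median of 1274 TPM in negative controls (54 to 6225), 178.5 TPM in LOCs (1 to 3426) and 106 TPM in pLSOs (0 to 6442). None of these 4 markers was at 0 throughout LOCs or pLSOs, and their sum was higher in LOCs in the median, as Cacna1e was. Negative controls also had fewer detected genes, with a median of 821 against 2394 in LOCs and 2560.5 in pLSOs. The part of these markers in the Cacna1e values was not tested.

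**Figure D1:**
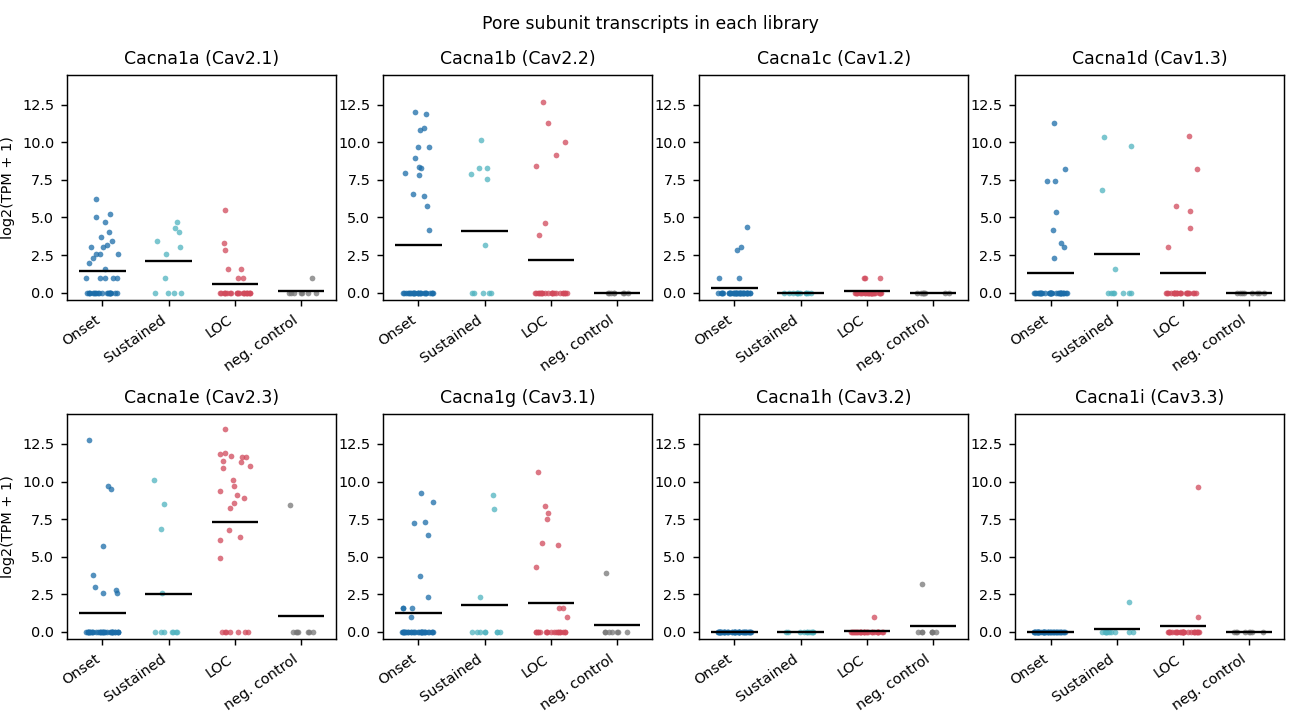
Each point is 1 library, with the level of the gene as log2(TPM + 1) on the vertical axis, the Onset, Sustained, LOC and negative control groups side by side on the horizontal axis, and a black line at the mean. Cacna1e shows a dense upper band in LOCs, with a mean of 7.32, and a row of zeros in most pLSOs, and the panels of Cacna1h and Cacna1i are almost empty.

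Cacna1a, the P/Q-type subunit Cav2.1, leaned the other way. The gene (ENSMUSG00000034656) lies on chromosome 8 of GRCm38 from 84388440 to 84640246 on the plus strand. It was detected in 28 of 52 pLSOs (53.8%, 39.5% to 67.8%) and in 7 of 28 LOCs (25%, 10.7% to 44.9%). That is a difference of 28.8 percentage points with intervals that overlap. In pLSOs its lowest value was 0, its median 1 and its highest 73 TPM, and in LOCs its lowest and median were 0 and its highest 44 TPM. Values were low and the classes overlapped from 0 to 44 TPM. The 7 positive LOC values were 44, 9, 6, 2, 2, 1 and 1 TPM, so 1 neuron made most of the LOC total.

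The mean of Cacna1a was 6.44 TPM among pLSOs against 2.32 TPM among LOCs, a ratio of 2.78, and 6.61 without the highest neuron of each class. On the log2(TPM + 1) scale the mean was 1.60 ± 1.84 in pLSOs and 0.60 ± 1.31 in LOCs (SD over neurons). The share difference fell to 17.6 percentage points at a threshold of 10 TPM and was 26.7 with all libraries as labelled. Onset neurons held it in 21 of 41 cases (51.2%, 35.1% to 67.1%) and Sustained neurons in 7 of 11 (63.6%, 30.8% to 89.1%), with overlapping intervals. Of the negative controls, 1 of 8 held it, at 1 TPM. In the annotation, 435 exonic bases of Cacna1a are shared with Gm16183 on the opposite strand, which was detected in 1 neuron.

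Cacna1b (ENSMUSG00000004113), the N-type subunit Cav2.2, was detected in 21 of 52 pLSOs (40.4%, 27% to 54.9%) and in 7 of 28 LOCs (25%, 10.7% to 44.9%), a difference of 15.4 percentage points with overlapping intervals. Its lowest value and median were 0 in both classes, and the highest was 4138 TPM among pLSOs against 6452 TPM among LOCs. The share leaned to pLSOs while the mean leaned to LOCs, at 334 against 389 TPM. Without the highest neuron of each class the means were 259 and 164 TPM, so the order of the means hung on 1 LOC. Onset neurons held it in 15 of 41 cases (36.6%) and Sustained neurons in 6 of 11 (54.5%, 23.4% to 83.3%). None of the 8 negative controls held it, which allows a share of up to 37.5%.

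Every neuron was also sorted by which of the 3 Cav2 transcripts it held. In LOCs, Cacna1e alone was the most frequent state, in 12 of 28 neurons (42.9%), whereas Cacna1a alone and Cacna1b alone were found in 1 neuron each. In pLSOs, Cacna1a alone was found in 11 of 52 neurons (21.2%), Cacna1a with Cacna1b in 9 (17.3%) and Cacna1e alone in 4 (7.69%). No LOC held Cacna1a with Cacna1b but without Cacna1e. All 3 transcripts were found together in 5 pLSOs and in 3 LOCs, and none of the 3 in 13 pLSOs (25%) and 5 LOCs (17.9%). At least 1 Cav2 gene was thus detected in a like share of both classes, 75% of pLSOs (61.1% to 86.0%) and 82.1% of LOCs (63.1% to 93.9%), and the classes differed in which one it was.

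**Figure D2:**
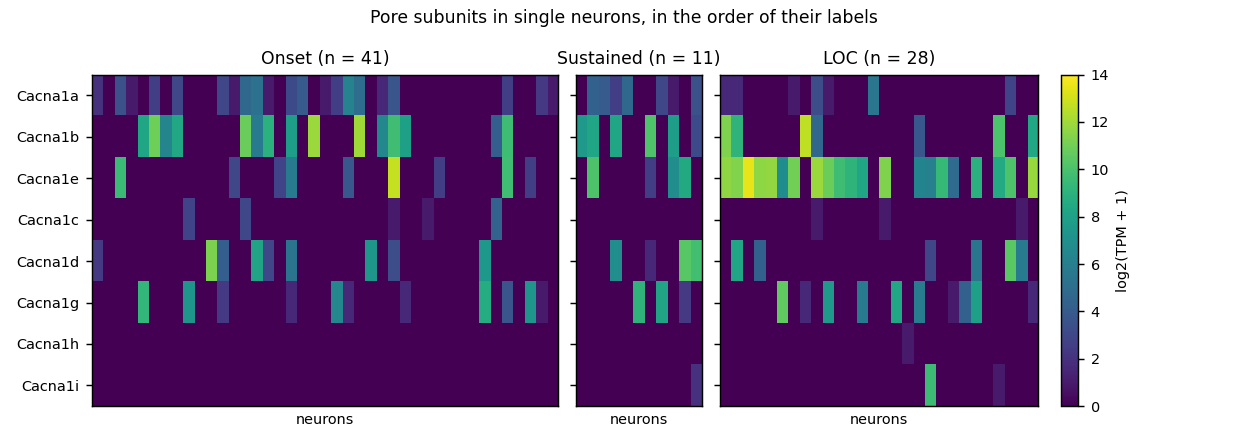
Each column is 1 neuron, in the order of its label within the Onset, Sustained and LOC groups, each row is 1 member, and colour gives log2(TPM + 1) from 0 (dark) to 14 (yellow). The Cacna1e row is filled in 21 of 28 LOCs, and the Cacna1a row holds dim cells in 28 of 52 pLSOs.

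The joint detection of Cav2 genes was set beside the product of their single shares. Cacna1a and Cacna1b were found together in 14 pLSOs, where 11.3 would follow from the product of their shares. Cacna1a and Cacna1e were found together in 8 pLSOs, where the product gives 7, and in 6 LOCs, where it gives 5.25. In both classes, each Cav2 pair was found at least as often as that product gives.

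The Cav1 genes were sparser. Cacna1d (ENSMUSG00000015968) lies on chromosome 14 of GRCm38 from 30039939 to 30491455 on the minus strand. Cacna1d, the L-type subunit Cav1.3, was detected in 13 of 52 pLSOs (25%, 14.0% to 38.9%) and in 6 of 28 LOCs (21.4%, 8.30% to 41%). Its highest value was 2445 TPM among pLSOs against 1368 TPM among LOCs, with medians of 0. Its mean was 105 TPM among pLSOs against 63.9 TPM among LOCs, and 58.8 and 15.6 TPM without the highest neuron of each class. The shares lay within each other's intervals, and the means rested on few neurons. Sustained neurons held Cacna1d in 4 of 11 cases (36.4%) and Onset neurons in 9 of 41 (22%), with overlapping intervals, and no negative control held it, which allows a share of up to 37.5%. Cacna1d shares 589 exonic bases with Chdh on the opposite strand, which was detected in 5 neurons.

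Cacna1c (ENSMUSG00000051331) lies on chromosome 6 of GRCm38 from 118587240 to 119196418 on the minus strand. This L-type subunit, Cav1.2, was detected in 5 of 52 pLSOs (9.62%, 3.20% to 21.0%) and in 3 of 28 LOCs (10.7%, 2.27% to 28.2%). Its highest value was 20 TPM among pLSOs against 1 TPM among LOCs, so the LOC detections stood at the threshold itself. All 5 pLSOs were Onset neurons. The 0 of 11 Sustained neurons allow a share of up to 27.3%, above the 12.2% of Onset neurons. Any Cav1 transcript was found in 32.7% of pLSOs (20.3% to 47.1%) and 28.6% of LOCs (13.2% to 48.7%).

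Among the Cav3 genes, Cacna1g (Cav3.1) was the one detected in more than a few neurons. The gene (ENSMUSG00000020866) lies on chromosome 11 of GRCm38 from 94408391 to 94474198 on the minus strand. It was held by 14 of 52 pLSOs (26.9%, 15.6% to 41%) and by 10 of 28 LOCs (35.7%, 18.6% to 55.9%). Its highest value was 611 TPM among pLSOs against 1558 TPM among LOCs, with medians of 0. The mean was 43.9 TPM among pLSOs against 87.2 TPM among LOCs, but 32.7 TPM in each class once the highest neuron of each was left out. The higher LOC mean thus came from 1 neuron. Onset and Sustained neurons held it in 26.8% and 27.3% of cases, and 1 negative control held it at 14 TPM.

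Cacna1h (ENSMUSG00000024112) lies on chromosome 17 of GRCm38 from 25374285 to 25433783 on the minus strand. Cacna1i (ENSMUSG00000022416) lies on chromosome 15 of GRCm38 from 80287238 to 80398279 on the plus strand. Cacna1h (Cav3.2) was not detected in any of 52 pLSOs, which allows a share of up to 5.77%, and was found in 1 of 28 LOCs at 1 TPM. The highest Cacna1h value of the libraries used was 8 TPM in a negative control, so no detection in neurons stood above the control level. Its exons share 158 bases with Tpsg1 on the opposite strand, which no neuron held. Cacna1i (Cav3.3) was found in 1 of 52 pLSOs, a Sustained neuron with 3 TPM, and in 2 of 28 LOCs, with 1 and 783 TPM. Any Cav3 transcript was found in 28.8% of pLSOs (17.1% to 43.1%) and 46.4% of LOCs (27.5% to 66.1%), with overlapping intervals.

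**Figure D3:**
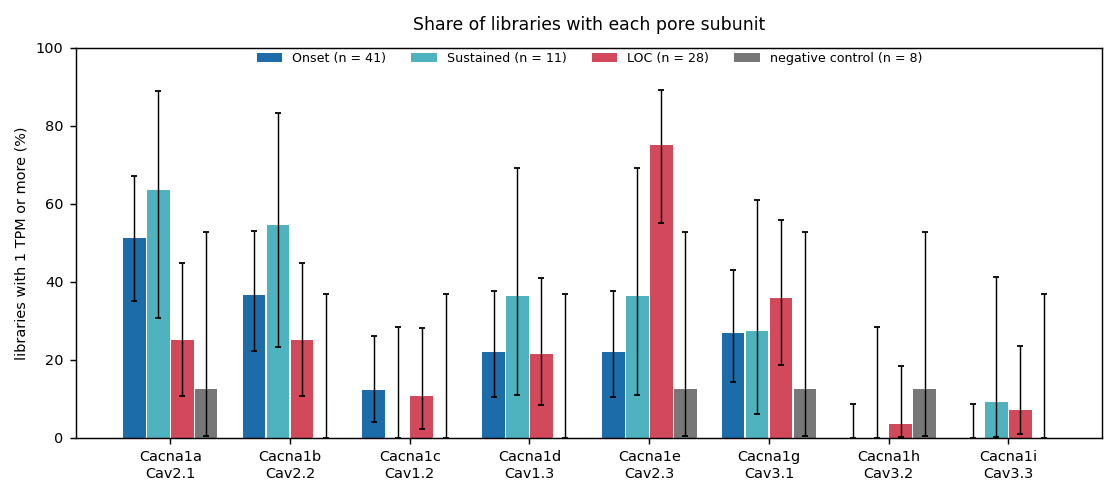
Bars give the share of libraries with 1 TPM or more of each member, in percent, for Onset (n = 41), Sustained (n = 11), LOC (n = 28) and negative control (n = 8) libraries, with exact 95% intervals. The LOC bar of Cacna1e, at 75%, is the tallest of all, and the intervals of Onset and Sustained neurons overlap for every member.

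Across the 8 members, a share difference of 25 percentage points or more between pLSOs and LOCs was found for 1 gene in each direction, Cacna1a towards pLSOs and Cacna1e towards LOCs. Of the 10319 genes detected in at least 5% of neurons, 3.06% passed that mark towards pLSOs and 1.8% towards LOCs. The median share difference over all 8 members was -2.34 percentage points, pLSO minus LOC, against 2.20 over the 10319 genes. The 8 include Cacna1h (-3.57) and Cacna1i (-5.22), which lie below the 5% mark, so the 2 medians cover unlike sets. The remaining members stood at 28.8 (Cacna1a), 15.4 (Cacna1b), 3.57 (Cacna1d), -1.10 (Cacna1c), -8.79 (Cacna1g) and -50.0 (Cacna1e). With so few members, the counts describe Cacna1a and Cacna1e and not the family.

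Between the firing patterns of pLSOs, no member passed the mark in either direction, while 1.57% of genes passed it towards Onset and 6.43% towards Sustained neurons. The differences, Onset minus Sustained, ran from -18.0 percentage points for Cacna1b to 12.2 for Cacna1c. With all libraries as labelled, Cacna1d and Cacna1e had the lowest difference, at -21.2 each, and Cacna1b stood at -13.6, and at a threshold of 5 TPM Cacna1a stood lowest, at -22.8. Of the 8 members, 6 had the lower share in Onset neurons, Cacna1i through 1 Sustained neuron at 3 TPM. How many of all genes had the lower share there was not counted, so the 6 are no trait of the members. Sustained neurons also had more detected genes, with a median of 2618 against 2488 in Onset neurons. The median difference over all 8, again with Cacna1h and Cacna1i, was -10.8 percentage points, against -3.55 over the 10319 genes. The 5 microglia markers summed to a median of 76 TPM in Sustained neurons (0 to 1273) and 3 TPM in Onset neurons (0 to 1805), none of them at 0 throughout either group, and their part in these differences was not tested. With 11 Sustained neurons the intervals were wide, and those of the firing patterns overlapped for every member.

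A neuron held 0 to 5 of the 8 transcripts. The number per neuron was 1.83 ± 1.23 in pLSOs and 2.04 ± 1.04 in LOCs, and within pLSOs it was 1.71 ± 1.25 in Onset and 2.27 ± 1.10 in Sustained neurons (mean ± SD over neurons). The spread within each class was larger than any of these differences. No member was found in 7 of 41 Onset neurons, in 0 of 11 Sustained neurons and in 1 LOC. The 0 of 11 allow a share of up to 27.3%. Negative controls held 0.500 ± 0.756. Across neurons, the number of members went with the number of detected genes at a Spearman rho of 0.27 in 52 pLSOs and 0.06 in 28 LOCs, values that share the library of each neuron.

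The genes that accompany the pore were taken from lists that were chosen with earlier results of these data known. Their counts beside those of all genes are descriptions and no support for a lean of a list. Of 19 auxiliary subunit and remaining pore genes, 12 were detected in at least 5% of neurons, and 2 leaned to pLSOs and 1 to LOCs by 25 percentage points or more, where 3.06% and 1.8% of all genes did. At a threshold of 10 TPM, 0 of these auxiliary genes leaned to pLSOs by that much. Cacng5, a gamma subunit that also serves AMPA receptors, was held by 65.4% of pLSOs and 7.14% of LOCs. Cacnb4, a beta subunit that brings pores to the membrane, was held by 53.8% of pLSOs and 28.6% of LOCs. Nalcn, the sodium leak channel related to the calcium channel pores, was held by 42.9% of LOCs and 13.5% of pLSOs, in the direction of Cacna1e. The median difference of the list was -5.77 percentage points, against 2.20 over all genes.

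All 16 active zone genes were detected in at least 5% of neurons, and 3 of them leaned to pLSOs and none to LOCs, where 3.06% and 1.8% of all genes did. This list too was chosen with earlier results of these data known, so its count is a description only. Syt2, a fast calcium sensor of release, was held by 69.2% of pLSOs and 17.9% of LOCs. Syt1, its close relative, was held by 88.5% and 57.1%. Rims1, which tethers Cav2 channels at release sites, was held by 55.8% and 25%. Snap25, a fusion protein present in nearly every neuron, was held by 100% and 96.4%. The median difference of the list was 5.08 percentage points, against 2.20 over all genes. Of 10 calcium-activated channel genes, 4 reached 5% of neurons and none passed the mark, with a median difference of -1.37 percentage points, and the most frequent were Kcnn2 (28.8% of pLSOs and 14.3% of LOCs) and Kcnma1 (3.85% and 14.3%).

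**Figure D4:**
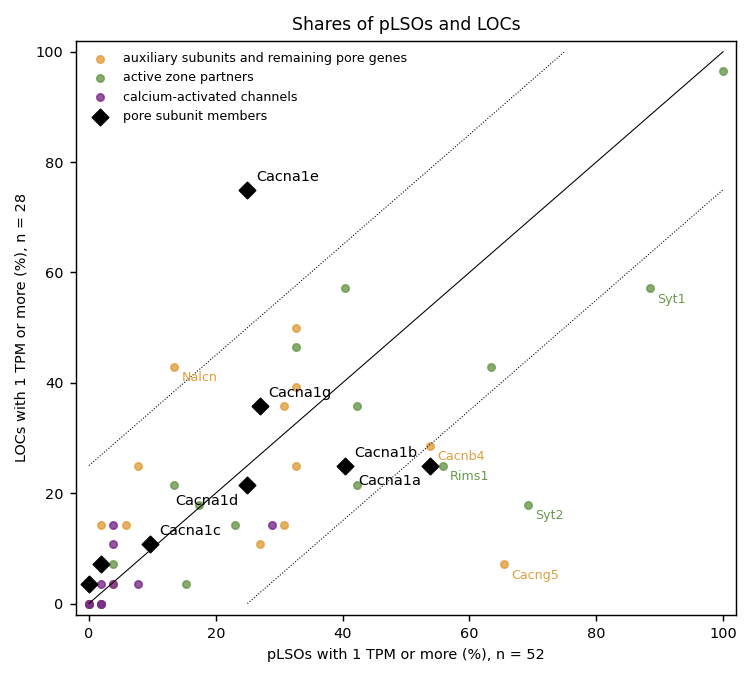
Each point is 1 gene, placed by the percent of 52 pLSOs (horizontal axis) and of 28 LOCs (vertical axis) that held it at 1 TPM or more; black diamonds are the members, coloured points the 3 gene lists, the solid line marks equal shares and the dotted lines a difference of 25 percentage points. Cacna1e, at 25% and 75%, lies farthest above the upper dotted line, and Cacng5 and Syt2 lie farthest below the lower one.

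For each member held by at least 20% of neurons, the genes with the most similar pattern were sought by Pearson's r of log2(TPM + 1) over the 80 neurons, among 4800 genes. For Cacna1e these were Cadps2 (r = 0.55), Col4a3 (r = 0.55) and Vgf (r = 0.54). All 3 were LOC genes by share: Col4a3 was held by 82.1% of LOCs and 0% of pLSOs, Cadps2 by 57.1% and 3.85%, and Vgf by 46.4% and 9.62%. After the class means were taken out, r fell to 0.30 for Cadps2, 0.12 for Col4a3 and 0.36 for Vgf, so much of the likeness was the class difference itself. For Cacna1a the nearest were Zdbf2 (r = 0.47), Nav2 (r = 0.45) and Bcl2a1b (r = 0.42), which kept r of 0.45, 0.41 and 0.41 within classes.

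The other members had weaker neighbours. Cacna1b came closest to Kmt2c (r = 0.38), Tm7sf2 (r = 0.38) and Acadl (r = 0.37). Cacna1d came closest to Pisd-ps1 (r = 0.43), Acap3 (r = 0.43) and Senp5 (r = 0.42), and Cacna1g to Mettl17 (r = 0.41), Suco (r = 0.40) and Adck1 (r = 0.40). These are descriptions across neurons, each value of a pair coming from the same library, and weak correlations in sparse data are no finding.

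Levels of 5 members were set beside 8 electrophysiological features within each class, 80 relations in all. Spearman's rho ran from -0.35 to 0.32, and no relation reached an absolute rho of 0.5. The highest was that of Cacna1a with the sag amplitude, the hyperpolarization-activated voltage sag, in 52 pLSOs (rho = 0.32, r = 0.32). Without the 2 neurons farthest from the median sag, both values were 0.29. The lowest was that of Cacna1a with the resting potential in 19 LOCs (rho = -0.35, r = -0.27), which became -0.56 and -0.48 without the 2 neurons farthest from the median resting potential. Those 2 neurons, cell_60 and cell_80, had the most negative resting potentials and held no Cacna1a. Only 7 of all 28 LOCs held the gene, and some of them have no resting potential, so the stronger value rests on few neurons. Cacna1e went with the action potential half-width in 28 LOCs at a rho of -0.35 (r = -0.39). That relation weakened to -0.27 and -0.26 without the 2 neurons farthest from the median half-width. The number of detected genes went with the same feature at -0.43 and with Cacna1e at -0.08. In values this sparse, such weak relations are given as a description only.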

How the data were processed

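Single LSO neurons were harvested by Patch-seq, and per the labels and the study's methods the authors trimmed reads with Trim Galore 0.4.2, aligned them with STAR to mm10, marked duplicates with Picard 1.115, counted with featureCounts on Gencode vM2 and converted counts to TPM. The deposited TPM values are rounded to whole numbers and were handled as a score. Here, symbols and coordinates came from Gencode vM21, which named 37570 of 38887 identifiers. The 8 members and all lists were chosen with earlier results of these data known. Named genes were the members, list genes with a share difference of 25 percentage points or more, the 2 most frequent genes per list, the 3 nearest genes per member and the cell type markers, of which 1 is not reported here and was left out of its sum. Detection was 1 TPM or more. Shares had exact Clopper-Pearson intervals, and limits for 0 used 3 neurons. Levels used log2(TPM + 1). No animal was named, so no test was run. The alternatives were thresholds of 5 and 10 TPM, all libraries as labelled, rescaled libraries, a pseudocount of 10, values under 10 TPM set to 0 and leaving out single neurons. A self-test on simulated data covered the share difference and a correlation, computed apart from the analysis steps, and no other step. The software was SciPy 1.17.1, NumPy 2.4.6, pandas 2.3.3 and matplotlib 3.10.9 under Python 3.11.15.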

Additional observations from a re-analysis of the deposited data

Results flagged for a closer look

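In the negative controls, 4 members had a positive value in 1 library each, far from the other 7 at 0. Cacna1a stood at 1 TPM and Cacna1g at 14 TPM in NC4, Cacna1e at 340 TPM in NC1 and Cacna1h at 8 TPM in NC8. In groups of this size chance sets apart about 1 in 20, and here all 4 groups with a positive value were so set apart, since a single detection among zeros always is.

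The libraries that were left out also held pore transcripts. Cacna1e was at 2436 TPM in cell_54 and 773 TPM in cell_78 (and, below the highest control, at 322 TPM in cell_85), Cacna1d at 1047 TPM and Cacna1g at 67 TPM in cell_54, and Cacna1b at 2946 TPM in cell_39. Of the negative controls left out, NC5 held Cacna1a at 6 TPM and NC6 held Cacna1b at 781 TPM and Cacna1g at 285 TPM. None of the 8 controls that were used held Cacna1b.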

How the results depend on the processing

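The direction of the Cacna1e and Cacna1a share differences was the same under each threshold and with all libraries as labelled. At a threshold of 10 TPM, 1 member in place of 2 differed by 25 percentage points or more between pLSOs and LOCs, since Cacna1a values are low. Leaving out the highest neuron of each class moved the ratio of mean TPM to 18.0 for Cacna1e and to 6.61 for Cacna1a. Leaving out the 2 neurons farthest from the median gave 1 relation with an absolute rho of 0.5 or more, in place of 0. At 10 TPM, 0 auxiliary genes leaned to pLSOs, in place of 2. The other 151 alternative values stayed within the 95% Newcombe interval of a share difference, within 1 SD over neurons of a mean, or within 1.5 times a count or ratio. These bounds are wide, and a value within them could change sign. At 5 TPM the share difference, pLSO minus LOC, went from 3.57 to -0.27 percentage points for Cacna1d and from -1.10 to 5.77 for Cacna1c. Without the highest neuron of each class, the log2 difference of Cacna1i went from -0.341 to -0.037. No paired analysis was possible because the labels pair no neurons and no result comes from a test. Depth limits every 0: absence of a transcript from a pipette aspirate is not absence from the neuron.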
